A study of Oryza sativa with 18 samples.

Results

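Lipid transfer protein genes encode small secreted plant proteins that carry fatty acids and other lipids in a hydrophobic cavity held together by disulfide bonds. In seeds they are known from the embryo, the aleurone and the outer cell walls, where members of the family take part in cuticle and wax assembly, in the movement of lipids during germination and in defence. A shorter, second type of about 7 kDa is named nsLTP2. Described here are 3 rice genes with this annotation, LOC_Os05g47730, LOC_Os03g02050 and LOC_Os08g03690, chosen by identifier from the 3149 genes that the authors list as differing between the csa mutant and wild type at any of 3 times. They were chosen because they were on those lists, so their differences between genotypes are given as a description, with no test. Lists of called genes do not hold uncalled ones, and the counts of LOC_Os03g02050 at 6 h and 12 h were not analysed here.

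The libraries came from germinating seeds of rice (Oryza sativa). The wild type line is named 9522 in the sample titles, and the csa line carries a mutation of CSA, a MYB transcription factor gene known for its role in sugar partitioning to the anther. Dehulled seeds of both lines were surface-sterilised and imbibed in MS medium at 28 °C with 16 h of light and 8 h of dark, and RNA was taken from 5 seeds per extraction at 3 h, 6 h and 12 h. This gave 6 groups of 3 libraries, 18 in all. The sample labels name embryo as the tissue, while the extraction text speaks of seeds, and neither says if replicates were separate plants or batches of seed, so the spread between libraries may be technical. The third wild type library at 12 h carries the mutant's name in its genotype field. Its title and description call it wild type, and it was kept there, with values also given without it.

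Total depth per library is unknown, since the tables hold called genes only. Library scaling factors recovered from the deposited fold changes lay between 0.919 and 1.10. Scaled counts are raw counts divided by these factors, and log2 fold changes set the csa mean over the wild type mean, with a standard error taken from the 3 libraries of each group. Each time was scaled in its own table, so levels at different times stand side by side below and were not compared. Factors computed by the TMM method over the listed genes alone, which centre a list of mostly higher calls, moved the median log2 fold change at 3 h by -1.24 and at 6 h by -0.59. The mutated gene itself, CSA (LOC_Os01g16810), was listed at 6 h alone, where its raw counts of 92, 81 and 201 for the mutant lay below 310, 305 and 380 for wild type. Some libraries stood apart from their group over all listed genes: csa replicate 2 at 3 h, csa replicate 3 at 6 h and csa replicate 2 at 12 h, at median distances of 0.55, 0.49 and 0.57 log2 units from the rest of their group, against 0.25 to 0.45 for the other libraries.

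The annotation text calls LOC_Os05g47730 (Os05g0550600, chromosome 5) similar to nonspecific lipid-transfer protein 2, the 7 kDa type, and LOC_Os03g02050 (Os03g0111300, chromosome 3) that protein itself. RefSeq, matched by gene ID for all 3 genes, gives LTP-2 and nsLTP2 as synonyms for LOC_Os03g02050 and no synonym for the other genes. LOC_Os08g03690 (Os08g0131200, chromosome 8) is annotated as similar to a non-specific lipid-transfer protein with no type.

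At 3 h all 3 genes were higher in csa under the recovered scaling. TMM factors from the listed genes lowered the log2 fold change of LOC_Os05g47730 from 3.51 to 2.29, of LOC_Os03g02050 from 1.48 to 0.23 and of LOC_Os08g03690 from 1.18 to -0.060. With those factors the edgeR refit kept the call of LOC_Os05g47730 and lost the other calls. Such factors centre a list of mostly higher calls and so lower the 3 h values by construction. The lost calls therefore cannot decide between the scalings. In the whole 3 h comparison 3.49% of 21397 tested genes were called higher and 1.42% lower, and since membership came from this contrast nothing is read from the count of 3. At 6 h LOC_Os05g47730 and LOC_Os08g03690 were again higher, where 6.03% of 23117 tested genes were called higher and 4.30% lower. At 12 h LOC_Os05g47730 was still higher (0.212% of 21242 tested genes were called higher), whereas LOC_Os08g03690 was now lower in csa (0.188% were called lower). In RNA of whole embryos or seeds, a changed share of a tissue or cell type and changed RNA per cell cannot be told apart.

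LOC_Os05g47730, of the nsLTP2 type, had raw counts at 3 h of 381, 496 and 629 with the csa mutation and of 61, 47 and 31 without it. Every mutant library stood far above every wild type library. The means were 515 ± 127 scaled counts in csa and 45.3 ± 15.2 in wild type (SD, n = 3), an 11.4-fold difference and a log2 fold change of 3.51 ± 0.35. It was 2.29 under TMM and 2.51 under median-ratio factors from the listed genes. In the authors' deposited table this gene had an FDR of 3.26e-36, the second smallest p of 1050 entries, and 19 entries had a higher fold change.

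At 6 h the same gene had 436, 485 and 216 raw counts in the mutant libraries, while the wild type libraries held 83, 71 and 33. The groups did not overlap, and replicate 3 was the lowest library in each genotype. Means of 390 ± 160 and 62.5 ± 28.6 scaled counts (SD, n = 3) gave a 6.24-fold difference and a log2 fold change of 2.64 ± 0.51. The deposited FDR was 1.30e-08 in the authors' table. Without csa replicate 3, the library that stood apart at this time, the log2 fold change was 2.94, and without wild type replicate 3 it was 2.31. In the median over all listed genes csa replicate 3 lay away from wild type, whereas for LOC_Os05g47730 it lay towards wild type.

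At 12 h its csa libraries held 1015, 797 and 604 raw counts, against wild type values of 251, 227 and 427. The groups again did not overlap, and wild type replicate 3, whose genotype field names the mutant, was the wild type library nearest to csa. Means of 822 ± 249 and 298 ± 110 scaled counts (SD, n = 3) gave a 2.76-fold difference and a log2 fold change of 1.46 ± 0.40. Without wild type replicate 3 the log2 fold change was 1.81. The deposited FDR was 0.00434 in the authors' table. The log2 fold change moved by -2.04 ± 0.53 from 3 h to 12 h and by -0.87 ± 0.62 from 3 h to 6 h (SE), differences that were not tested because both ends belong to the contrast used for choosing the gene.

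LOC_Os03g02050, the gene that RefSeq names nsLTP2, was listed at 3 h only. The csa libraries held 7395, 10838 and 9173 raw counts and those of the wild type 3609, 2850 and 3901, with no overlap. The means of 9399 ± 1984 and 3367 ± 536 scaled counts (SD, n = 3) differed 2.79-fold, a log2 fold change of 1.48 ± 0.22. Under TMM factors from the listed genes the log2 fold change was 0.23 and the edgeR refit did not keep the call, and under median-ratio factors from the same genes it was 0.42. The authors' deposited table gives an FDR of 2.78e-12. The combined SD of both groups behind its standard error was 0.38 log2 units, below the median of 0.58 over entries listed at 3 h. Csa replicate 2 was its highest library, and without it the log2 fold change was 1.32.

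LOC_Os08g03690 was the gene whose direction turned. At 3 h the mutant libraries held 9467, 10307 and 7376 raw counts, against 5327, 4026 and 3291 for wild type. The groups did not overlap, and all mutant libraries were higher. The means of 9301 ± 1704 and 4117 ± 1059 scaled counts (SD, n = 3) differed 2.26-fold. The log2 fold change of 1.18 ± 0.26 lay nearest to the authors' threshold of 1 among the entries of the 3 genes, with an FDR of 8.96e-07 in the authors' deposited table. Of the listed entries at 3 h that set the TMM factors, 71.0% were higher in csa, and under those factors this gene stood at -0.060. Median-ratio factors from the same entries gave 0.15.

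At 6 h LOC_Os08g03690 had 4802, 4688 and 3484 raw counts with the mutation, and 1842, 546 and 627 in wild type. Wild type replicate 1 was well above the other wild type libraries and still below every mutant library. The means were 4419 ± 922 and 999 ± 745 scaled counts (SD, n = 3), with a 4.43-fold difference, a log2 fold change of 2.15 ± 0.64 and an FDR of 5.38e-06 in the authors' deposited table. Without wild type replicate 1 the log2 fold change was 2.96, or 7.77-fold. The combined SD of both groups, from which the standard error was taken, was 1.12 log2 units. It is wider than the spread within either group alone. Of the entries listed at 6 h, 90.2% had a smaller combined SD.

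At 12 h LOC_Os08g03690 had mutant raw counts of 1003, 2198 and 906, while wild type libraries reached 5904, 7157 and 2098. The raw values overlapped, csa replicate 2 being above wild type replicate 3, and after scaling these libraries stood at 2015 and 2087, so the scaled groups no longer overlapped. The mean was 1351 ± 579 in csa and 4972 ± 2586 in wild type (SD, n = 3), 3.68-fold lower in csa, with a log2 fold change of -1.88 ± 0.56 and an FDR of 0.00626 in the authors' deposited table. The overlap came from the library that stood apart among the mutants and from the wild type library with the conflicting genotype field. Without wild type replicate 3 the log2 fold change was -2.25, and without csa replicate 2 it was -2.29.

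**Figure D1:**
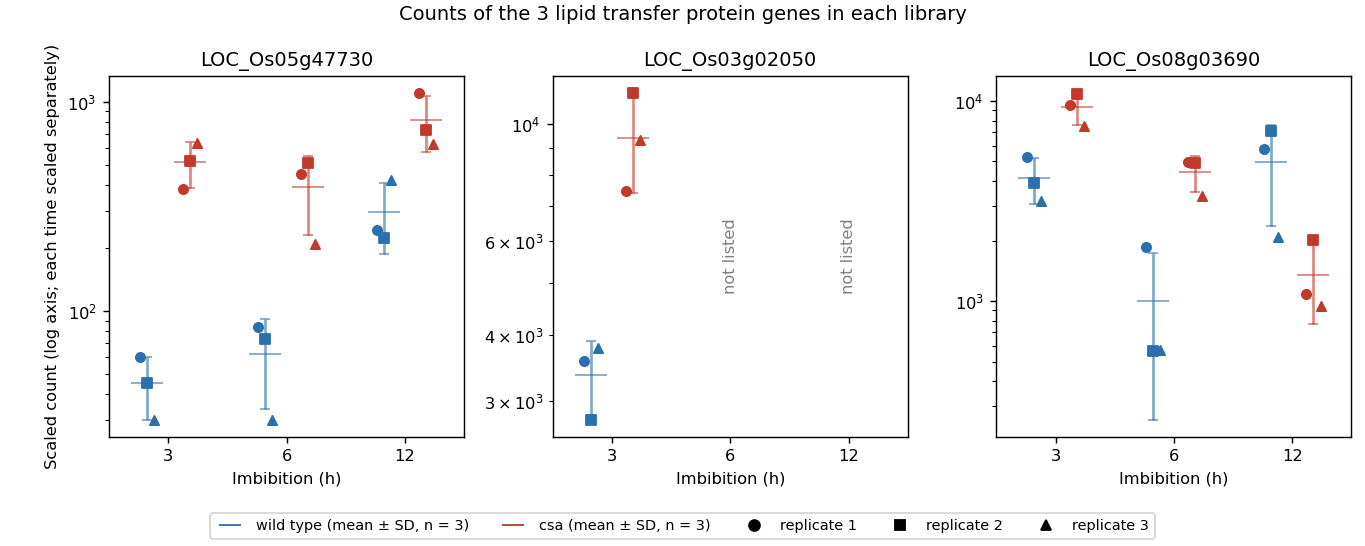
Scaled counts of LOC_Os05g47730, LOC_Os03g02050 and LOC_Os08g03690 in each library on log axes, wild type in blue and csa in red, with mean and SD of 3 libraries at 3 h, 6 h and 12 h of imbibition. LOC_Os05g47730 lies higher in csa at every time, while LOC_Os08g03690 lies higher at 3 h (not under TMM factors from the listed genes) and 6 h and lower at 12 h, where csa replicate 2 (2015) and wild type replicate 3 (2087) nearly meet.

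The position of wild type replicate 3 at 12 h was measured on the log2 scale between the mean of the other wild type libraries, set at 0, and the mean of the csa libraries, set at 1. For LOC_Os05g47730 it lay at 0.48 and for LOC_Os08g03690 at 0.69. Over all 85 genes listed at 12 h its median position was 0.08, a list that was called with this library counted as wild type and so favours genes in which it lies near that group. Csa replicate 2 at 12 h lay at 0.47 of the way to wild type for LOC_Os08g03690 and at 0.12 for LOC_Os05g47730.

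Each value was recomputed with 1 library left out at a time. LOC_Os05g47730 stayed between 3.28 and 3.77 at 3 h, between 2.31 and 2.94 at 6 h and between 1.19 and 1.81 at 12 h. LOC_Os03g02050 stayed between 1.32 and 1.62 at 3 h. LOC_Os08g03690 ranged from 1.02 to 1.39 at 3 h, from 1.86 to 2.96 at 6 h and from -2.29 to -1.54 at 12 h. None of these 42 values changed sign. In an edgeR refit of all listed genes that applied the authors' largest p as the limit, the 12 h entry of LOC_Os05g47730 was kept with all libraries and lost when any of 4 of the 6 was left out: csa replicate 1, csa replicate 2, wild type replicate 1 or wild type replicate 2. The 12 h entry of LOC_Os08g03690 was lost without csa replicate 2, and its 3 h entry without wild type replicate 3.

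**Figure D2:**
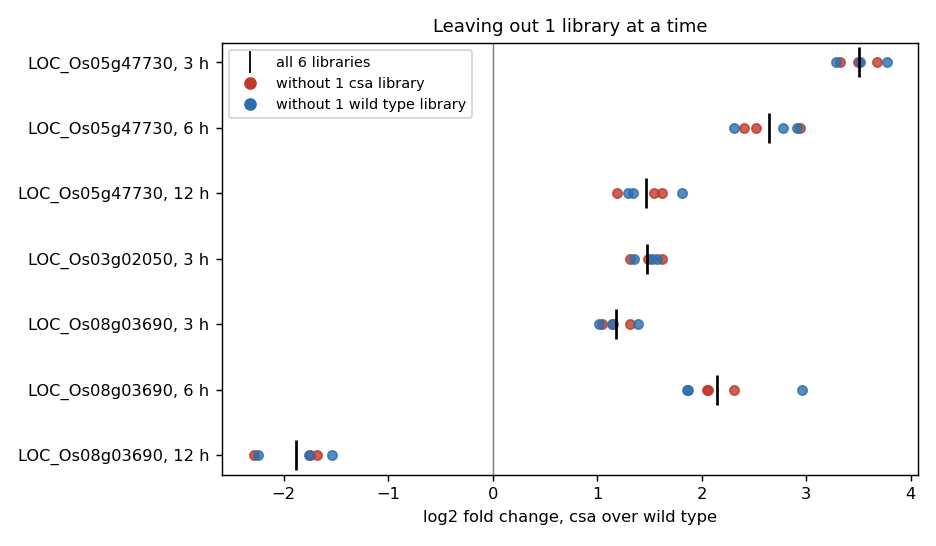
Log2 fold change of csa over wild type for each gene and time with all 6 libraries (black bar) and with 1 csa (red) or 1 wild type (blue) library left out. The widest shift is that of LOC_Os08g03690 at 6 h, from 2.15 to 2.96 without wild type replicate 1, and no value crosses 0.

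The ratio of 2 genes' counts within a library needs no library scaling, so it can be set side by side across genotypes and times. It also depends on transcript length, which is the same in every library. At 3 h the count of LOC_Os08g03690 over that of LOC_Os05g47730 was 24.8, 20.8 and 11.7 with the mutation, against wild type ratios of 87.3, 85.7 and 106. The mutant ratios were all lower, LOC_Os05g47730 having the larger fold change.

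At 6 h the same ratio was 11.0, 9.67 and 16.1 for the mutant, with 22.2, 7.69 and 19.0 for wild type. Here the genotypes overlapped. At 12 h it was 0.988, 2.76 and 1.5 in csa against 23.5, 31.5 and 4.91 in wild type, again without overlap. At that time LOC_Os05g47730 was called higher and LOC_Os08g03690 lower, each without overlap of scaled groups. The 12 h separation of the ratio was therefore fixed by the calls. In the csa libraries the ratio was lower at 12 h than at 3 h in every library, and in wild type the 12 h values were likewise all below the 3 h values. For LOC_Os03g02050 over LOC_Os08g03690 at 3 h the ratios were 0.781 to 1.24 in csa and 0.678 to 1.19 in wild type, which overlapped, so the balance of these 2 genes did not separate the genotypes.

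**Figure D3:**
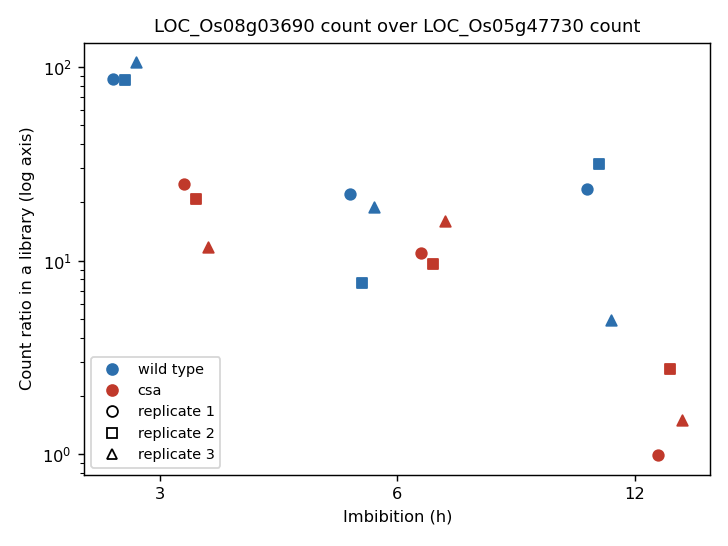
Count of LOC_Os08g03690 divided by the count of LOC_Os05g47730 in each library, on a log axis, by time and genotype. Csa libraries (11.7 to 24.8) lie below wild type (85.7 to 106) at 3 h, overlap with it at 6 h, and lie below it again at 12 h (0.988 to 2.76 against 4.91 to 31.5). The separation at 12 h was fixed by the opposite calls of these genes.

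Of the 17 genes listed at all 3 times, 8 were higher in csa throughout, LOC_Os05g47730 among them, and 8 were lower throughout. The remaining gene was LOC_Os08g03690. Among 29 genes listed at 3 h and 12 h, 25 had the same direction and 4 the opposite one, and of these 4 LOC_Os08g03690 and the fatty aldehyde dehydrogenase-like gene LOC_Os02g43280, whose enzyme class oxidises fatty aldehydes to fatty acids, went from higher to lower. In the authors' deposited table the latter stood at 1.90 at 3 h and -1.90 at 12 h. Among 34 genes listed at 6 h and 12 h, 3 had opposite directions, and LOC_Os08g03690 and the thioredoxin fold gene LOC_Os03g44650 went from higher to lower. These genes were named after their values were seen. The 3 times have separate libraries and share no controls. The change in the log2 fold change of LOC_Os08g03690 from 6 h to 12 h came to -4.03 ± 0.85 (SE) and was not tested.

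**Figure D4:**
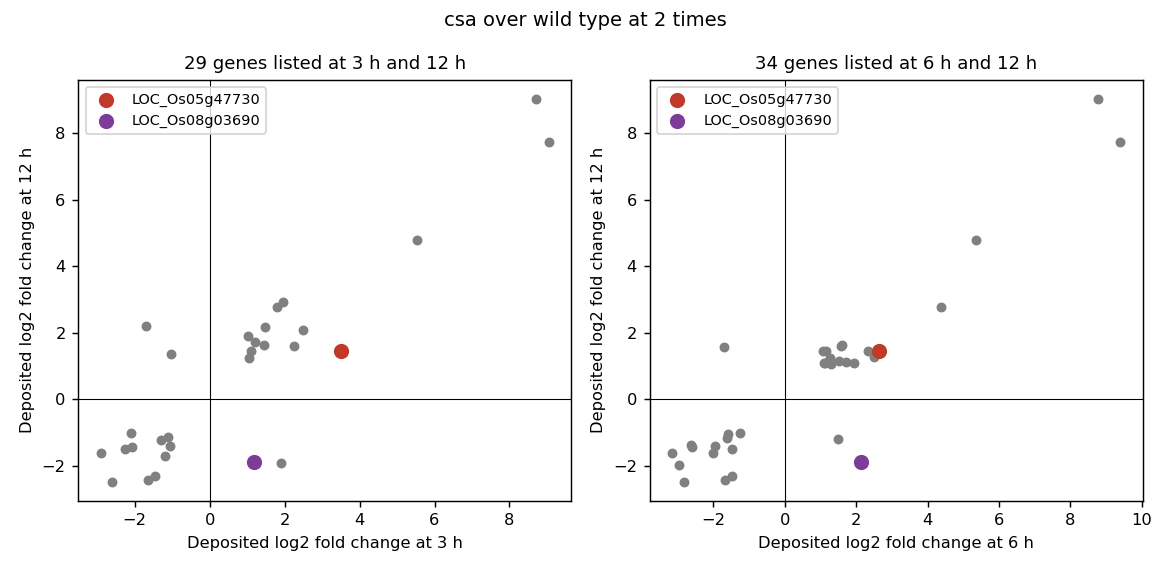
Deposited log2 fold changes at 12 h against those at 3 h (29 genes) and at 6 h (34 genes), 1 point per gene listed at both times. LOC_Os05g47730 (red) lies with the genes higher at both times and LOC_Os08g03690 (purple) with the few that were higher earlier and lower at 12 h.

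In all, 12 listed genes carried lipid transfer wording in their annotation, the 3 described above and 9 others. Of the 9, 8 were listed at a single time and LOC_Os06g23360 at 3 h and 6 h. At 3 h 7 of the 12 were listed, the 3 genes among them, and all 7 were higher in csa (6 of 7 under TMM and 7 of 7 under median-ratio factors from the listed genes), with a median log2 fold change of 1.63. Over all 1050 entries the median was 1.20 and 746 were higher. With the TMM factors 486 of those entries lay above 0 and 562 below. At 6 h 5 were higher and 2 lower, with a median of 1.74 beside 1.11 over all 2388 entries, of which 1395 were higher. The lower entries included LOC_Os08g44220, a glycolipid transfer gene of an unrelated family that the wording caught. At 12 h 2 were higher and 1 lower, beside 45 higher and 40 lower of all 85. Scaled groups did not overlap for any of the 17 entries, nor for 96.3%, 97.3% and 100% of all entries listed at 3 h, 6 h and 12 h, so this does not set the family apart. How many family members were tested and not called was not analysed here.

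Among the others at 3 h, LOC_Os12g02290, annotated as similar to a nonspecific lipid-transfer protein, had means of 121 ± 32.8 and 27.6 ± 5.34 scaled counts for csa and wild type (SD, n = 3) and a log2 fold change of 2.13 ± 0.28. LOC_Os11g02369, similar to non-specific lipid-transfer protein 2, had mutant raw counts of 46, 80 and 126, wild type raw counts of 32, 32 and 23, and a log2 fold change of 1.61 ± 0.42. At 6 h LOC_Os11g02379, whose entry carries the text for lipid transfer protein LPT IV and a second identifier (LOC_Os11g02389.1), stood at 1.81 ± 0.30. The starts of rice chromosomes 11 and 12 are known as a recently duplicated segment with close gene copies. The treatment of reads that fit several copies is not stated in the labels or headers, so the split of counts among these 3 genes is uncertain.

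LOC_Os06g23360, a gene with the domain shared by lipid transfer proteins, seed storage proteins and trypsin and amylase inhibitors, was higher at 3 h and 6 h with log2 fold changes of 1.63 ± 0.33 and 1.36 ± 0.37. LOC_Os03g55734, of the same domain class, had raw counts of 16, 16 and 18 in csa against 7, 4 and 5 in wild type at 3 h. Its FDR of 0.0489 in the authors' deposited table lay just inside the threshold. LOC_Os08g43290, an LTP-like gene that RefSeq also names OsC4 and that is known from rice anthers, had raw counts of 34, 49 and 42 in csa against 18, 6 and 15 in wild type at 6 h, a log2 fold change of 1.74 ± 0.43.

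At 6 h 2 genes were lower. LOC_Os01g68589 carries the same annotation text as LOC_Os06g23360, which was higher, so that domain class went both ways. It had raw counts of 292, 245 and 192 in csa against 475, 784 and 565 in wild type, with a log2 fold change of -1.28 ± 0.32. LOC_Os08g44220 encodes a glycolipid transfer protein domain, an intracellular family unrelated to the small secreted proteins, and had raw counts of 1, 1 and 2 in csa against 7, 14 and 40 in wild type. At 12 h LOC_Os05g40010, similar to a nonspecific lipid-transfer protein, was listed with LOC_Os05g47730 as higher. Mutant libraries held 1068, 894 and 1319 raw counts and wild type libraries 526, 540 and 588, a log2 fold change of 1.04 ± 0.22. LOC_Os08g03690 was thus the lower one of the 3 listed at 12 h.

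**Figure D5:**
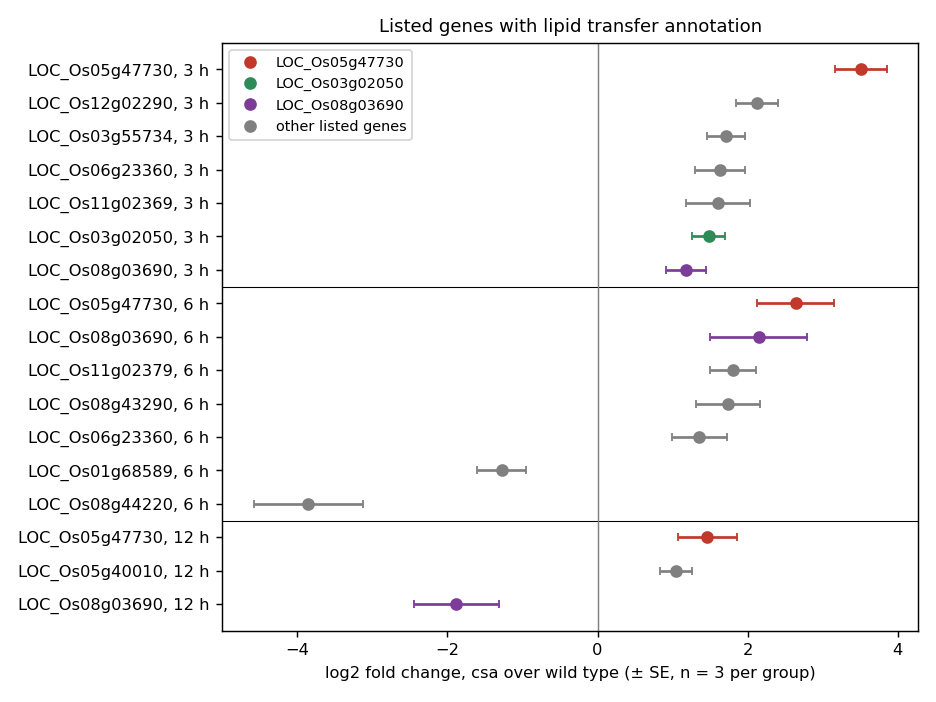
Log2 fold change of csa over wild type with its standard error (n = 3 per group) for the 17 entries with lipid transfer annotation, grouped by time. All 7 entries at 3 h lie above 0 (6 of 7 under TMM and 7 of 7 under median-ratio factors from the listed genes), 5 of 7 at 6 h and 2 of 3 at 12 h. LOC_Os08g44220 at 6 h is a glycolipid transfer gene of an unrelated family.

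Likeness to other listed genes was measured as the Pearson correlation of log2(scaled count + 1), centred on each time, over all libraries of the tables that list the gene. It is a description in which the step between genotypes carries most of the value. For LOC_Os05g47730 the 3 most alike of 16 other genes over 18 libraries were LOC_Os01g05530 (r = 0.90), LOC_Os01g05510 (r = 0.89) and LOC_Os03g42235 (r = 0.89). LOC_Os01g05530 is a Brix domain gene, whose protein class acts in ribosome assembly, and the others are conserved hypothetical genes. Their deposited log2 fold changes at 3 h were larger, at 9.1, 8.7 and 5.5 against 3.5 for LOC_Os05g47730. For LOC_Os03g02050, over 6 libraries and 1047 genes, they were a histone H3-like gene (LOC_Os06g06460), a beta-glucosidase 26-like gene (LOC_Os07g46280) and an oleosin gene (LOC_Os06g27910), whose product coats oil bodies, with r values of 0.996, 0.996 and 0.994. LOC_Os08g03690 was compared with the 16 other genes listed at all 3 times, each of which kept its direction. A gene that turned could therefore hardly be close to any of them, and turning genes missing at a time were not compared. The highest r for LOC_Os08g03690 was 0.47 for the small heat shock gene LOC_Os01g04360, with 0.46 for LOC_Os05g47730. Of the 6 nearest genes in RefSeq order, 1 was listed for LOC_Os05g47730 and 0 for either of the other genes. That neighbour, the protein kinase gene LOC_Os05g47770, was lower in csa at 6 h, at -1.71 ± 0.32.

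Other lipid and seed genes in the tables were counted by their annotation, and their counts stand beside shares of higher calls over all listed entries of 71.0% at 3 h, 58.4% at 6 h and 52.9% at 12 h. With TMM factors from the listed genes, 486 entries at 3 h lay above 0 and 562 below. With median-ratio factors, 692 lay above 0 and 356 below. Embryo and oil body genes, oleosins among them, had 7 of 7 listed members higher in csa at 3 h (2 of 7 under TMM factors from the listed genes), 5 of 5 at 6 h and none listed at 12 h, with median log2 fold changes of 1.13 and 1.11 at 3 h and 6 h. Genes linked to abscisic acid, the hormone of seed maturation and dormancy, had 11 of 12 higher at 3 h (6 of 12 under those factors), 13 of 14 at 6 h and 1 of 1 at 12 h. LOC_Os08g23870, a late embryogenesis gene of group 1, stood at 2.26 ± 0.32 at 3 h and 1.60 ± 0.33 at 12 h. Cuticle and extracellular lipid genes had 3 of 3 higher at 3 h (0 of 3 under those factors) but 2 higher and 4 lower at 6 h, with a median of -1.55. Under median-ratio factors from the listed genes, 7 of 7, 11 of 12 and 2 of 3 of these lists, in that order, were higher at 3 h. At 6 h the 3-ketoacyl-CoA synthase-like gene LOC_Os06g14810, whose class elongates fatty acids for waxes, stood at -1.64 ± 0.24, and the GDSL lipase gene LOC_Os05g44200 at -2.11 ± 0.28, while LOC_Os05g47730 and LOC_Os08g03690 were higher.

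Transcripts of endosperm storage proteins mark a tissue other than the embryo. The listed glutelin and prolamin genes were higher in csa at each time, beside the same shares of 71.0%, 58.4% and 52.9% over all entries: 4 of 4 at 3 h (2 of 4 under TMM and 4 of 4 under median-ratio factors from the listed genes), 2 of 2 at 6 h and 1 of 1 at 12 h. Their summed scaled counts ranged from 5126 to 6658 in csa and 2109 to 2595 in wild type at 3 h, from 320 to 518 against 166 to 207 at 6 h and from 1716 to 4023 against 459 to 1022 at 12 h. The aleurone and germination terms caught 5 entries at 3 h, 2 at 6 h and 1 at 12 h, all higher, of which LOC_Os03g45960 at 3 h and LOC_Os04g44470 at 12 h are amylase inhibitor genes. Their 5 entries at 3 h also lay above 0 under TMM and median-ratio factors from the listed genes. Over all entries at 3 h, 486 lay above 0 and 562 below under TMM factors. The endosperm sums are over genes called higher, so their separation was fixed by the listing. Uncalled markers were not analysed here, so the labelled tissue could not be checked in full, and the part of endosperm RNA in the lipid transfer values was not tested.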

How the data were processed

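Each of 3 tables holds csa against wild type at 1 time. Per the file headers, the authors deposited raw counts for every library and, for called genes only, each gene's p-value, FDR and log2 fold change. The submitters' processing notes name DESeq2, with no version. No aligner, counting tool, strand setting or build is given in the sources used here. All sample columns matched a title (0 unmatched), and 0 pairs of libraries were identical. Scaling factors were fitted by least squares so that ratios of scaled group means matched the deposited log2 values (median absolute residual 0.000485 to 0.00152 log2 units). The number of tested genes was recovered from ranks implied by p and FDR. The number chosen matched 881 of 956 entries used at 3 h, 1906 of 2038 at 6 h and 61 of 67 at 12 h. It is therefore approximate.

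All listed genes were refitted with edgeR 4.0.16 (quasi-likelihood) and DESeq2 1.42.0 in R 4.3.3, keeping genes at the authors' largest p, an absolute log2 fold change of at least 1 and the same direction. The edgeR step was tested on simulated data. Left-out libraries, other scalings, other estimators and stricter thresholds were tried. Genes named are the 3 members, all listed genes with lipid transfer wording, the 3 most alike, listed neighbours within 3 genes and up to 2 per annotation list and time. Members, lists and rules were chosen with earlier results of these data known.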

Additional observations from a re-analysis of the deposited data

How the results depend on the processing

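Of 98 recomputed values of the 3 genes, 92 moved by less than the combined SD of both groups. That yardstick is wider than the spread within either group. The edgeR and DESeq2 refits without a block used the same counts and recovered factors, so their values stayed near by construction. Leaving out the scaling could change little, since the recovered factors lay between 0.919 and 1.10. Among the 92 was the ratio of medians for LOC_Os08g03690 at 6 h, 3.11 against 2.15. The values that moved further came from scaling factors computed over the called genes alone at 3 h. TMM factors gave 2.29 for LOC_Os05g47730, 0.23 for LOC_Os03g02050 and -0.060 for LOC_Os08g03690, and median-ratio factors gave 2.51, 0.42 and 0.15. By construction, such factors centre a list of mostly higher calls.

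A stricter limit of 2 on the absolute log2 fold change left 2 higher lipid transfer entries at 3 h, 2 higher and 1 lower at 6 h, and 0 higher and 0 lower at 12 h. The edgeR refit kept 1003, 2276 and 38 listed genes at 3 h, 6 h and 12 h, against 1050, 2388 and 85 listed, and DESeq2 kept 54 at 12 h. With TMM factors it kept 346 at 3 h, 12.1% of them higher against 71.3%, and 1428 at 6 h, 30.5% higher against 58.9%. Leaving out 1 library kept between 653 and 921 genes at 3 h, between 1573 and 1960 at 6 h and between 12 and 31 at 12 h. The lowest counts were without csa replicate 2 at 3 h and 12 h and without wild type replicate 2 at 6 h. At 12 h 24, 20 and 25 were kept without csa replicate 3, wild type replicate 2 and wild type replicate 3.

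With the replicate number as a block the refit kept 1007, 2314 and 36 genes. LOC_Os05g47730 stood at 3.50, 2.66 and 1.49 with the block, LOC_Os03g02050 at 1.47 and LOC_Os08g03690 at 1.19, 2.37 and -1.78, all kept as calls. Same-numbered libraries correlated between -0.21 and 0.29, so the numbers were not taken as pairs, and 2, 1 and 1 of 3 csa libraries at 3 h, 6 h and 12 h correlated best with their own number. Depth over all genes is unknown, and precision rests on 3 libraries per group.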
